A study of Mus musculus with 12 samples.

Results

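The hearts described here were the 3 *Wt* hearts from non-diabetic pregnancy, taken by their genotype and pregnancy labels as 3 of the 12 left ventricles in the series, and no other group was compared with them. The study crossed *Wt* FVB females with males carrying 1 null allele of *Hif1a*, so that *Wt* and *Hif1a*+/- pups shared litters, and made some of the dams diabetic with streptozotocin before mating. The 3 animals were *Wt* pups of dams without diabetes, were 12 weeks old, and are called heart 25, heart 42 and heart 89 after the numbers in their titles. Total RNA of the whole left ventricle was sequenced, so the values mix all the cells of the ventricular wall. The study's methods name 3′-seq libraries (which sample mainly the end of a transcript) of mice from several litters, whereas the labels' protocol speaks of standard Illumina libraries and leaves the kit open. The labels recorded these animals as female, whereas the study's design text spoke of male offspring.

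The left ventricle pumps blood through the body without pause, and its RNA is dominated by the large, mitochondria-rich cardiomyocytes. Each beat starts when calcium leaves the sarcoplasmic reticulum, lets the myosin thick filaments pull on the actin thin filaments, and is pumped back. The ATP for both steps comes mainly from fatty acids burned in the mitochondria, while fibroblasts, endothelial cells, pericytes and macrophages fill the space between the muscle cells.

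Between 16132442 and 24377534 reads per heart were assigned to genes, and at least 1 read was found in every heart for 17620 of 46983 genes. The reads were concentrated, as 419 genes held 50% and 2736 genes held 80% of them. A mean normalized count (the count divided by the heart's size factor, a scaling for depth) of at least 50 was found for 11758 genes, and every statement on spread refers to these. Across them Pearson's r of log2(normalized count + 1) was between 0.984 and 0.989 for the 3 pairs of hearts, given as a description across genes that share libraries. The median SD of log2(normalized count + 1) among hearts was 0.14, against 0.06 from the counting of reads alone.

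A gene was said to vary when its highest heart had at least 1.5 times the normalized count of its lowest heart. This held for 1320 of the 11758 genes (11.2%), and for 223 of the 3898 genes with a mean of at least 1000 (5.72%). This is the background for every list below, and no test was made because the 3 hearts form 1 group. The share depended on level, with 26.9% of genes from 50 to 200, 7.34% from 200 to 1000, 5.66% from 1000 to 10000 and 6.42% above. The 11.2% is thus low as a background for lists whose genes have few counts. Heart 25 was the highest for 4.26% and the lowest for 3.72% of all genes among those that varied. Heart 42 was the highest for 3.35% and the lowest for 2.76%, and heart 89 was the highest for 3.61% and the lowest for 4.75%. Hearts 42 and 89 alone differed by that factor for 4.55% of the genes, hearts 25 and 42 for 4.67% and hearts 25 and 89 for 7.12%. Counts by pair below give the genes of a list that differed by that factor between these pairs, in that order, and thus leave out heart 25, heart 89 and heart 42 in turn.

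A difference among the libraries went with transcript length. When genes were split by length into 4 classes of equal size, in the class with the shortest principal transcripts (93 to 1990 bases), the median log2 ratio of a heart to the mean of the 3 was -0.07 in heart 25, -0.06 in heart 42 and 0.11 in heart 89. In the class with the longest (4633 bases and over) it was 0.08, 0.03 and -0.13. With these medians removed within each class, 9.79% of the genes varied. Heart 25 also had a larger share of reads aligned to several places, 17.0% against 13.1% in heart 42 and 13.6% in heart 89, and such reads were not counted for any gene.

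**Figure D1:**
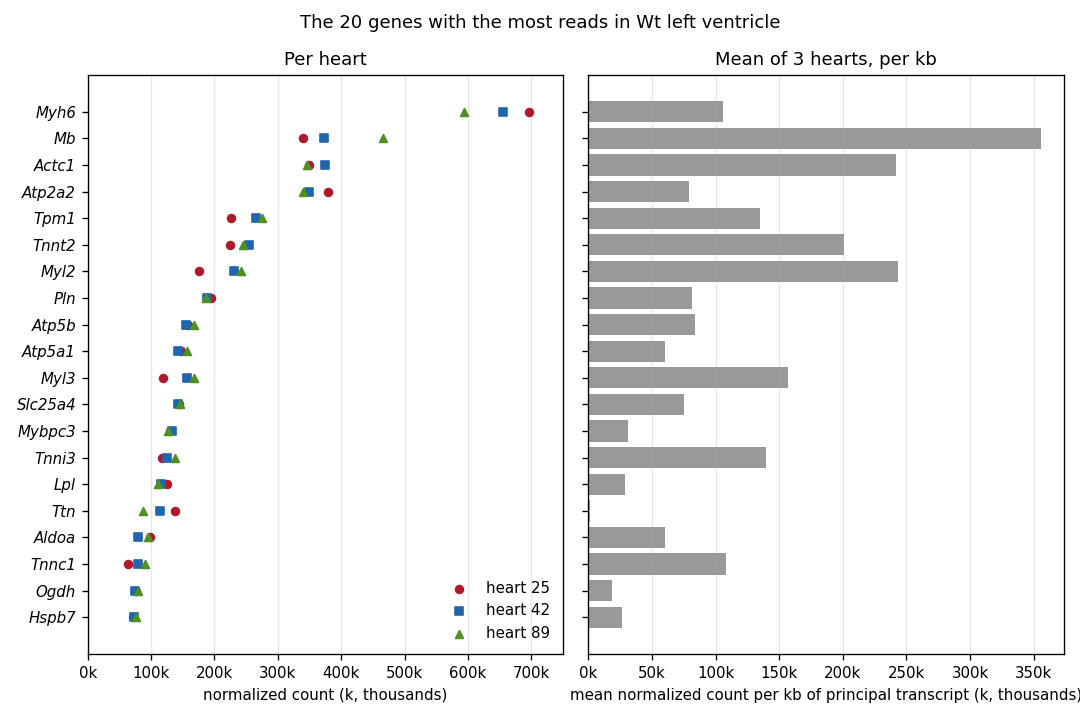
The 20 genes with the highest mean normalized count. The left panel shows the normalized count (k, 1000) of each of the 3 hearts as a point, and the right panel the mean of the 3 hearts per kilobase of principal transcript as a bar. *Myh6* led by reads at 648729, and *Mb* led per kilobase at 355859.9.

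Muscle and energy genes made up the top of the ranking, and the 20 most abundant genes held 18.2% of the reads. First was *Myh6* (chr14:54941921-54966927, GRCm38, minus strand), the fast myosin heavy chain of the adult mouse ventricle, with normalized counts of 696752 in heart 25, 655053 in heart 42 and 594383 in heart 89. Its mean was 648729 ± 51477 (SD, n = 3), or 2.90% of the reads. Second was *Mb* (chr15:77015487-77050670, minus strand), encoding the oxygen store myoglobin, with 340097, 372859.8 and 465651. The order of these 2 genes was the same in the 3 hearts, and their ranges did not overlap.

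The next places went to *Actc1* (cardiac actin, 356236 ± 15061) and *Atp2a2* (the calcium pump SERCA2, 355840.4 ± 20004). These 2 means differed by less than the SD of either, so their order is not resolved. They were followed by *Tpm1* (tropomyosin, 255745 ± 25964), *Tnnt2* (troponin T, 241369 ± 15034), *Myl2* (ventricular regulatory light chain, 216194 ± 35732) and *Pln* (phospholamban, which restrains SERCA2, 189904 ± 4464). The beta and alpha subunits of the ATP synthase, *Atp5b* (160202 ± 6694) and *Atp5a1* (148445 ± 7194), came next. *Myl3* (essential light chain, 147211 ± 25371) and *Slc25a4* (the ATP/ADP carrier of the inner mitochondrial membrane, 144238 ± 2272) came close behind, with values that overlapped those of *Atp5a1*. *Mybpc3* (myosin-binding protein C, 130102 ± 3313), *Tnni3* (troponin I, 127125 ± 10506), *Lpl* (lipoprotein lipase, 117562 ± 6910.1) and *Ttn* (titin, 113298 ± 25174) were the remaining genes above 100000. *Aldoa* (the glycolytic aldolase, 91105 ± 9822), *Tnnc1* (troponin C, 77745 ± 12998), *Ogdh* (a citrate cycle dehydrogenase, 76868 ± 2233) and *Hspb7* (a small heat shock protein, 73563 ± 2691) closed the list. *Ckmt2*, the mitochondrial creatine kinase, lay just outside it at 71045 ± 2853.

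The ranking changed when the normalized counts were divided by transcript length. Per kilobase of principal transcript *Mb* was first with 355859.9, followed by *Myl2* (243188), *Actc1* (241844), *Tnnt2* (201141) and *Myl3* (157109). *Myh6*, with a transcript of 6113 bases, fell from place 1 to place 9 (106123 per kilobase), and *Ttn*, with 100404 bases, from 16 to 1276 (1128 per kilobase). Which scale comes nearer to transcript number was not tested. Over the 11346 genes with a principal transcript, Spearman's rho of count and length was 0.03, a description across genes with no p. It was 0.27 over 80 ribosomal protein genes and 0.53 over the 17 ATP synthase genes.

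**Figure D2:**
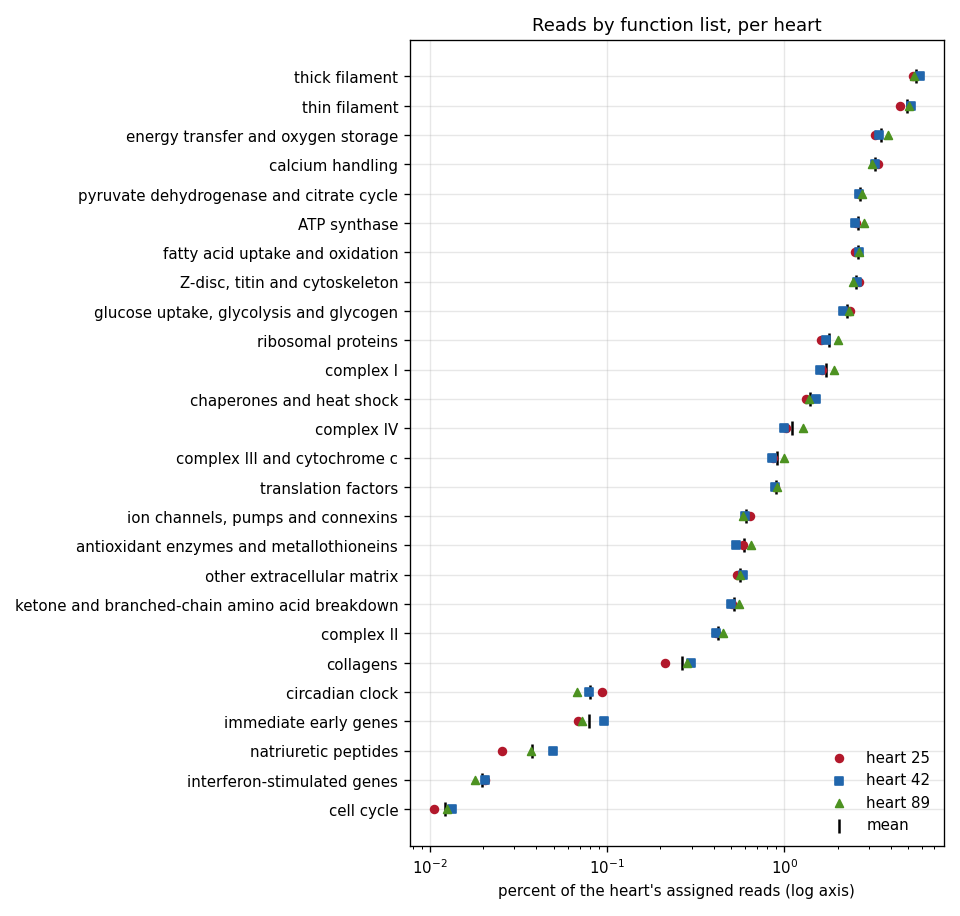
Percent of each heart's assigned reads (log axis) held by each list of genes with a common function, with 1 point per heart and a tick at the mean. Thick filament genes led with 5.50%, and collagens, natriuretic peptides, immediate early and clock genes were the lists drawn whose points lay furthest apart (the mitochondrially encoded genes are not drawn).

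The genes of the sarcomere, the contractile unit, held 12.9% ± 0.54 (SD, n = 3) of the reads with 43 genes. Thick filament genes held 5.33%, 5.78% and 5.39% in hearts 25, 42 and 89, and thin filament genes 4.46%, 5.16% and 5.04%. Titin, Z-disc and cytoskeleton genes held 2.62%, 2.56% and 2.45%. Heart 25 was the lowest for both filaments and the highest for the Z-disc list. The slow myosin *Myh7* was a small part of the myosin heavy chain by count, as *Myh6* exceeded it 33.8, 31.6 and 30.3 times in the 3 hearts. *Myh7* overlaps the gene *Mhrt* on the opposite strand, and whether reads of *Myh7* were lost there was not tested. Troponin was likewise of the adult type, with *Tnni3* at 127125 and the fetal and slow-muscle form *Tnni1* at 2.41 normalized counts.

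A minor actin form differed widely among the hearts. *Acta1* (chr8:123891769-123894751, minus strand), the skeletal actin that is abundant in the fetal and the overloaded heart, had 4361 normalized counts in heart 25, 19091 in heart 42 and 15507 in heart 89. Hearts 42 and 89 were alike within 1.23 times, and heart 25 stood at 0.25 times their mean. *Actc1* was nearly level (348352, 373602 and 346754), so the ratio of *Actc1* to *Acta1* was 79.9, 19.6 and 22.4. Its SD of 1.15 on the log2 scale put *Acta1* nineteenth of 11758 genes, far above the 0.017 expected from counting.

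Other sarcomere genes varied less. Of 9 thick filament genes at the minimum level 3 varied, namely the atrial light chain *Myl4* (91, 126 and 56), *Myom2* (an M-band protein, 23255, 40738 and 27866) and *Myom3* (77, 81 and 128). *Acta1* was the only one of 9 in the thin filament. Of 22 Z-disc and titin genes 5 varied, which was 22.7%. They were *Nebl* (nebulette, 13032, 7988 and 8682), *Cmya5* (26889, 17553 and 17168), *Ankrd1* (a stretch-responsive titin partner, 34574, 48962 and 55834), *Tcap* (telethonin, 34021, 21823 and 31863) and *Ttn* (137716, 114748 and 87429.6). By pair the list gave 0, 3 and 4 genes. With transcript length removed 3 genes of the list varied, and *Ttn* moved from 1.58 to 1.36 times. *Actn2* (alpha-actinin) and *Des* (desmin), with means of 64977 and 60092, were the other genes of this list among its 3 most abundant.

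Calcium handling genes held 3.39%, 3.24% and 3.12% of the reads, mostly through *Atp2a2* and *Pln*. The release channel *Ryr2* followed with 48621, 34135 and 31932 normalized counts, highest in heart 25. Of 19 genes 4 varied, *Ryr2* among them, and by pair 1, 2 and 3. With transcript length removed 3 varied, and *Ryr2* fell from 1.52 to 1.38 times. *Casq1*, the skeletal form of the calcium store protein, had 644, 1939 and 1385, while the cardiac form *Casq2* had 20291, 22431 and 21193. Heart 25 was thus the lowest for *Casq1*, as it was for *Acta1*. The sodium-calcium exchanger *Slc8a1* had 4559.5, 2776 and 2384, and the channel subunit *Cacnb2* 2645, 3026 and 1855.

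Ion channel, pump and connexin genes held 0.61% ± 0.03 of the reads, with *Gja1* (connexin 43) at a mean of 17165. Of 24 genes 2 varied (8.33%), the potassium channel *Kcnd2* (1019, 997 and 672) and *Gja5* (connexin 40 of conduction tissue and arteries, 258, 212 and 169). Both were lowest in heart 89, and by pair 0, 0 and 2 genes differed. *Kcnd2* fell from 1.52 to 1.33 times with transcript length removed, which left 1 gene.

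Genes for the respiratory chain and the ATP synthase held 6.45%, 6.36% and 7.46% of the reads with 82 genes, highest in heart 89. The ATP synthase held 2.61% ± 0.17, complex I 1.71% ± 0.17, complex IV 1.10% ± 0.16, complex III with cytochrome c 0.91% ± 0.08 and complex II 0.42% ± 0.02. All 5 lists had their highest share in heart 89 and their lowest in heart 42. Yet no single gene among 36 of complex I, 4 of complex II, 15 of complex IV and 17 of the ATP synthase varied by 1.5 times. Of 10 genes of complex III and cytochrome c 1 did, *Uqcrq* (13980.5, 11911 and 18019.5), and it fell to 1.35 times with transcript length removed. Heart 89 was also the highest for short transcripts in general (above), and the part of this in the shares was not tested.

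Among the most abundant subunits were *Ndufa4* (24043) and *Ndufv1* (22347) in the complex I list, *Sdha* (37120.2), *Sdhb* (24497) and *Sdhc* (17072) in complex II, *Uqcrc1* (41374), *Uqcrc2* (30983) and *Cyc1* (27236) in complex III, and *Cox4i1* (45968), *Cox6a2* (42779.6) and *Cox6c* (22964) in complex IV. *Ndufa4* was also named for complex IV, but a gene named for several lists was counted in the first. The share of complex I thus holds it and that of complex IV does not. *Atp5g3* (41868), a subunit of the membrane ring, was the third gene of the ATP synthase. Of subunits that exist as a heart or muscle form and a general form, the muscle form prevailed on both scales. *Cox6a2* exceeded *Cox6a1* 16.8 times by count and 14.1 times per kilobase, *Cox8b* exceeded *Cox8a* 4.62 and 7.06 times, and *Cox7a1* exceeded *Cox7a2* 1.65 and 2.76 times. The mitochondrially encoded genes could not be judged, because the study removed mitochondrial reads before alignment. They held 0.000429% of the reads and 26 of 37 had no read in any heart.

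Genes for fuel use and energy transfer held 11.2%, 11.3% and 12.1% of the reads. Energy transfer and oxygen storage came first with 3.26%, 3.41% and 3.84%, led by *Mb*, *Slc25a4* and *Ckmt2*. *Ucp2*, a mitochondrial carrier also found in white blood cells, was the only one of its 14 genes that varied, with 3035, 1584 and 1883. The citrate cycle list, with *Ogdh* and *Mdh1* (67592) among its most abundant genes, held 2.63%, 2.62% and 2.74%, and none of its 21 genes varied. Glucose uptake, glycolysis and glycogen genes held 2.33%, 2.15% and 2.31%, led by *Aldoa*, *Gapdh* (48232) and *Eno3* (47934). None of 25 varied, and 2 did with transcript length removed. Ketone and branched-chain amino acid breakdown held 0.52% ± 0.03, led by *Oxct1* (43177), *Acat1* (16458) and *Ivd* (10283), and none of its 16 genes varied.

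Of several fuel genes the form typical of striated muscle or heart was the higher one. The insulin-responsive glucose carrier *Slc2a4* exceeded *Slc2a1* 27.2 times by count and 35.2 times per kilobase. The muscle phosphoglycerate mutase *Pgam2* exceeded *Pgam1* 28.3 times by count (21.1, 28.1 and 39.1 in the 3 hearts) and 59.9 times per kilobase. *Eno3* exceeded *Eno1* 20.2 and 26.2 times, and the heart lactate dehydrogenase *Ldhb* exceeded *Ldha* 1.67 and 2.26 times, on the same scales. By count, the ratio of *Ldhb* to *Ldha* was 1.45, 1.73 and 1.86 in the 3 hearts. The hexokinases *Hk1* and *Hk2* had 7839 and 9269 normalized counts, a ratio of 0.85, which turned to 1.21 per kilobase, so their order depended on the scale. *Cpt1b*, described below, was another exception.

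Fatty acid uptake and oxidation held 2.5%, 2.62% and 2.65% of the reads. *Lpl*, which frees fatty acids from lipoproteins, *Cd36*, which carries them into the cell (54287, 48148 and 54042), and *Fabp3*, which binds them inside (39884, 44028 and 59153), were its 3 most abundant genes. Of 33 genes 3 varied (9.09%), and these included regulators of fuel choice. *Pdk4*, the kinase that shuts off pyruvate dehydrogenase, had 13572 in heart 25, 26919 in heart 42 and 10797 in heart 89. *Ppara*, the receptor that switches on fatty acid oxidation genes, had 1340.1, 929 and 466. *Cpt1b*, the muscle form of the enzyme at the mitochondrial gate, was listed with 190, 228 and 128 only, below the liver form *Cpt1a* at 977. Such a level is low beside the other enzymes of the pathway (*Acadl* 38891, *Hadha* 38388), and it was not tested whether reads of *Cpt1b* were left uncounted.

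Ribosomal protein genes held 1.61%, 1.72% and 2.00% of the reads, 1.24 times between highest and lowest, led by *Rplp0* (14128), *Rpl4* (13544) and *Rpsa* (10499). The share was highest in heart 89, as were 78 of the 80 genes at the minimum, though 1 alone varied by 1.5 times (1.25%). How many of all genes, varying or not, were highest in heart 89 is not given, so the 78 have no background. Heart 89 was also the highest for short transcripts in general (above), and the part of this in the share was not tested. *Rpl24* was counted at 3.30, and in GENCODE M21 47.0% of its exon bases overlap another annotated gene on the same strand. Reads at such positions are tallied as ambiguous, but the study counted reads with another GENCODE version. Whether this overlap accounts for the count was not tested. Translation factors held 0.90% ± 0.01, led by *Eef2* (41767), the muscle and nerve elongation factor *Eef1a2* (38751) and *Eif4g2* (31053). None of their 12 genes varied.

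**Figure D3:**
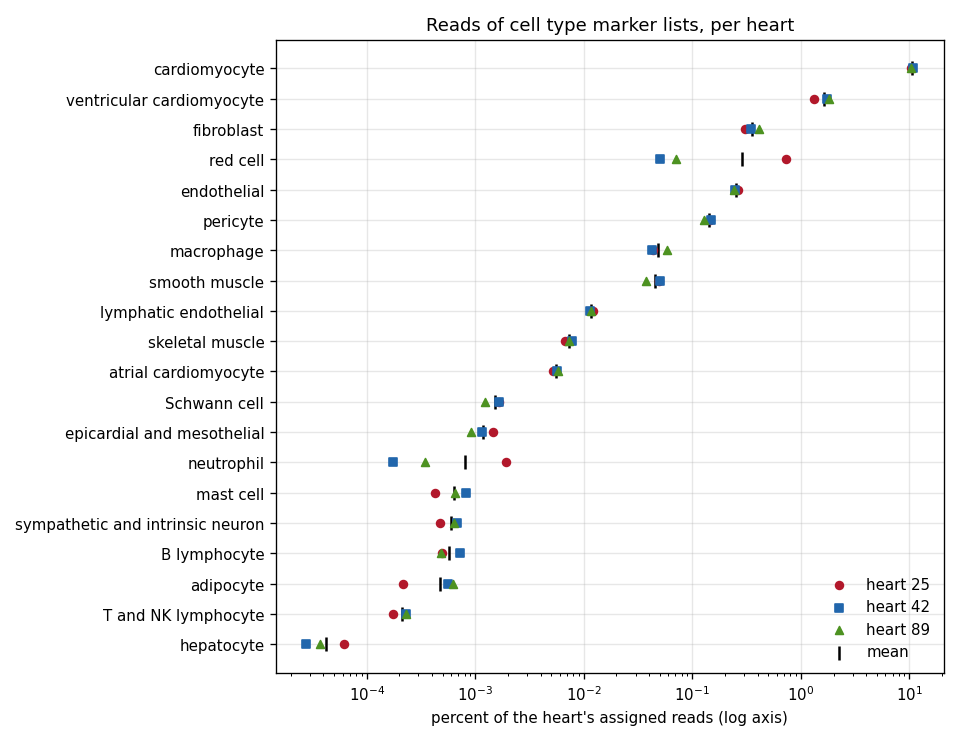
Percent of each heart's assigned reads (log axis) held by each list of cell type markers, with 1 point per heart and a tick at the mean. Lists without a read in some heart are not drawn. Red cell and neutrophil markers were highest in heart 25, 14.6 and 10.9 times the lowest heart.

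Markers of cardiomyocytes held 10.3%, 10.9% and 10.3% of the reads with 12 genes, which checks the labelled tissue. In whole tissue, fewer cells of a type and less RNA per cell cannot be told apart. The ventricular light chains *Myl2* and *Myl3* were high, and the ventricular factor *Irx4* had 1202, 1244 and 1160. Of the atrial genes, *Nppa* at 1101 was near the level of *Irx4*. The other atrial genes were low, with *Myl4* at 90.8, *Myl7* at 38.8, *Sln* at 14.6 and *Bmp10* near 0. Skeletal muscle genes were near 0 apart from *Myl1* (1584), the next being *Mylpf* (14.6) and *Tnni2* (11.4). Lung, liver and thymus markers had almost no reads. *Sftpa1*, *Sftpc*, *Sftpd*, *Scgb1a1*, *Alb*, *Rag1* and *Rag2* had no read among the 62082141 of the 3 hearts, which allows up to 0.0483 CPM (counts scaled to a common total) each, for counting error only. The highest mean of these lists was that of *Ttr* (8.35).

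The 4 Y-linked genes were expressed in the 3 hearts at even levels, with *Ddx3y* at 2251 ± 158, *Eif2s3y* at 1855 ± 48.9, *Uty* at 674 ± 6.31 and *Kdm5d* at 427 ± 34.0. *Xist*, which silences an X chromosome in females, had 48.9, 25.5 and 17.5 normalized counts. The data go against the label female.

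Fibroblast markers held 0.31%, 0.35% and 0.42% of the reads, led by *Gsn* (gelsolin, 40033), *Dcn* (decorin, 16256) and *Col3a1* (6777). The share leaned on *Gsn* (35906, 35743 and 48451), which alone held 0.179% of the reads on average, against 0.357% for the list. Of 12 genes 3 varied, all highest in heart 89 and lowest in heart 25, and by pair 0, 1 and 3. These were *Col3a1* (4474, 7827 and 8031), *Lum* (lumican, 1913, 2494 and 3236) and *Col1a1* (2600.5, 3745 and 3925). The receptor *Pdgfra* (875, 916 and 1111) and the factor *Tcf21* (286, 314 and 342), which mark resident fibroblasts, did not.

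Collagens as a whole were lower in heart 25, with 0.211% of the reads against 0.299% in heart 42 and 0.283% in heart 89. Of 24 collagen genes 11 varied (45.8%), and heart 25 was the lowest in 9 of the 11. *Col4a1* (12769, 17011 and 15331) and *Col4a2* (10497, 12501 and 11876) of the basement membrane were the most abundant. The largest spreads were in *Col4a3* (40.5, 70.4 and 98.5), *Col5a3* (558, 950.5 and 1240.1), *Col15a1* (1830.5, 3627 and 3762) and *Col27a1* (108, 204 and 102). By pair 2, 8 and 9 collagens differed. With transcript length removed 17 varied.

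Other extracellular matrix genes held 0.54%, 0.58% and 0.56%, led by *Dcn*, *Hspg2* (perlecan, 14481) and *Lamb2* (laminin, 13878). Of 29 genes 5 varied, and by pair 1, 3 and 3. The protease inhibitors *Timp4* (309, 126 and 313) and *Timp3* (2627, 1482 and 1083) had the largest spread, followed by *Lum* and *Mgp* (matrix Gla protein, 2388, 2508 and 3639). Natriuretic peptides, hormones released on wall stretch, differed too. *Nppb* had 4790.1, 9901 and 7132 and varied, *Nppa* had 1013, 1061 and 1230, and *Nppc* had no read.

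Endothelial markers held 0.262%, 0.247% and 0.244% of the reads, led by *Fabp4* (16437), *Eng* (endoglin, 6854) and *Kdr* (VEGF receptor, 6165). The summed level was thus even, yet 5 of 15 genes varied, and by pair 0, 2 and 5. *Flt1*, another VEGF receptor, had 4328, 3050.4 and 2186, *Vwf* 2353, 1269 and 1353, *Eng* 9063, 6550.1 and 4950.2, and the tight junction gene *Cldn5* 462, 697 and 755. *Flt1*, *Vwf* and *Eng* were highest in heart 25 and *Cldn5* was lowest there. With transcript length removed 3 of the 15 varied. Lymphatic markers held 0.0117% ± 0.0004, led by *Prox1* (1779), *Flt4* (534) and *Ccl21a* (106), and *Mmrn1* (133, 85.8 and 52.5) varied.

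Pericyte markers held 0.147%, 0.150% and 0.129%, led by *Rgs5* (14627), *Abcc9* (11527), which cardiomyocytes also express, and *Pdgfrb* (2086). None of the 8 varied. Smooth muscle markers held 0.0497%, 0.0499% and 0.0375%, led by *Smtn* (4226), *Acta2* (4159) and *Mylk* (664). *Myh11*, the smooth muscle myosin (776, 704 and 355), and *Mylk* (787, 691 and 516) varied among 5 genes, both lowest in heart 89, and *Mylk* fell from 1.53 to 1.32 times with transcript length removed.

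Macrophage markers held 0.0438%, 0.0429% and 0.0590%, led by *Lyz2* (3453), *C1qa* (1267) and *Csf1r* (1223). Of 13 genes 7 varied (53.8%), and heart 89 was the highest in 6 of them. By pair 3, 2 and 4 differed, and 5 varied with transcript length removed, where *Lyz2* fell from 1.55 to 1.38 times and *Cd14* from 1.58 to 1.41 times. *Cx3cr1* had 82.4, 118 and 220, *Adgre1* (F4/80) 106, 168 and 222, *Timd4* 37.7, 54.1 and 73.7, and *Cd163* 244, 139.9 and 178. Heart 89 thus led the macrophage genes that varied, apart from *Cd163*, which was highest in heart 25.

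Other blood and interstitial cells left few reads. T and NK cell markers were all under the minimum, with *Cd4* (21.1), *Cd3e* (7.20) and *Cd3g* (4.87) the highest. Of B cell markers *Blk* alone passed it (101, 141 and 90.2), ahead of *Cd79b* (7.07) and *Cd79a* (3.52), and of mast cell markers *Kit* alone (74.1, 166 and 131), ahead of *Mcpt4* and *Cpa3*. Adipocyte markers were under it, with *Cfd* (22.4, 40.8 and 83.8), *Adipoq* and *Cidec* leading and *Ucp1* without a read. The epicardial list rested on *Wt1* (203, 220.5 and 178), with the mesothelial *Krt19*, *Upk3b* and *Msln* all under 50. The Schwann cell genes *Mbp* (119, 84.7 and 74.6) and *Cdh19* (44.7, 70.4 and 52.5) varied. *Dbh* (128) was the only neuronal gene at the minimum, with *Prph* and *Th* near 0 and *Chrna3* without a read.

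Markers of red cells differed more than those of any other list with reads in every heart. They held 0.731% of the reads in heart 25, 0.0501% in heart 42 and 0.0708% in heart 89, 14.6 times between highest and lowest, and all 5 genes at the minimum varied and were highest in heart 25. *Hbb-bs* (chr7:103826534-103828096, minus strand), an adult beta globin, had 98050.4, 6536 and 9703 normalized counts. The alpha globin *Hba-a1* had 50177, 3654 and 5011, the other beta globin *Hbb-bt* 10113, 500.2 and 686, and *Alas2*, the first enzyme of haem synthesis in red cells, 5964, 328 and 477. *Slc4a1*, the anion exchanger of the red cell membrane, had 418, 7.15 and 7.37, and its SD of 3.27 was the highest of all genes. Hearts 42 and 89 differed by at most 1.48 times in these genes. *Hba-a2* was listed at 7.13 on average, and its split from the near-identical *Hba-a1* is uncertain.

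**Figure D4:**
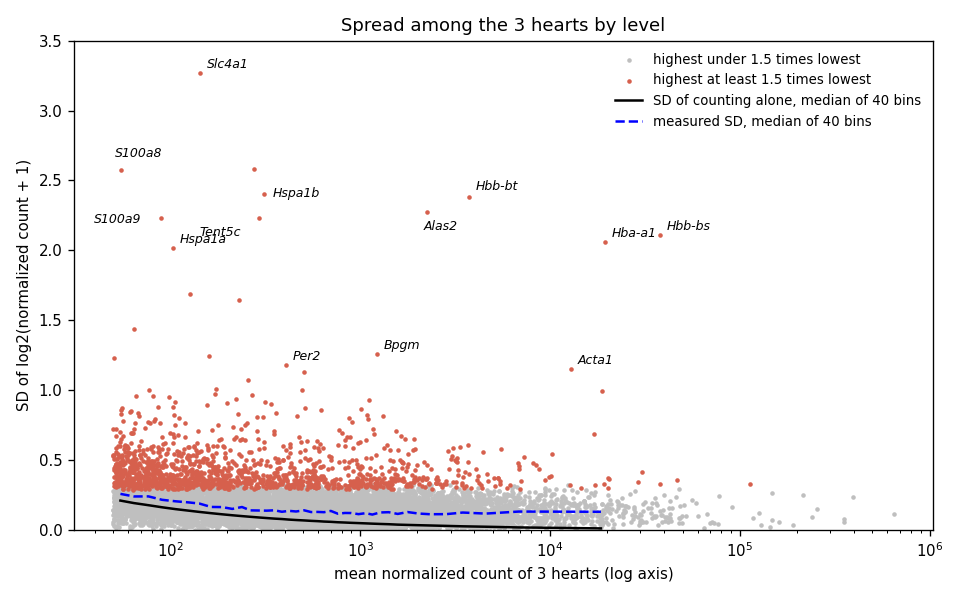
SD of log2(normalized count + 1) among the 3 hearts against the mean normalized count (log axis) for 11758 genes. Red points are the 1320 genes whose highest heart had at least 1.5 times the lowest, and the lines are medians of 40 bins. Red cell, neutrophil and heat shock genes are among the labelled points far above the lines, with *Slc4a1* the highest at an SD of 3.27.

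Of the 20 genes with the largest SD, 16 were highest in heart 25, 3 in heart 42 and 1 in heart 89. Part of this tally follows from the minimum level. Some of the 16 were under 50 in both hearts 42 and 89 and reached the minimum only through heart 25. *Slc4a1*, *S100a8*, *S100a9*, *Cd24a*, *Lrrc10b* and *E2f2* were among them. Without heart 25, only 6 of the 20 genes stayed among the most spread. Beside the red cell markers, several genes were likewise highest in heart 25. *Tent5c* had 776, 60.2 and 46.0, *Cd24a* 302, 39.8 and 37.8, *Isg20* 544, 70.4 and 79.2, *Bpgm* (which makes the haemoglobin regulator bisphosphoglycerate) 2559.9, 533 and 605, and *E2f2* 105, 22.5 and 23.9. *Lrrc10b* had 143, 21.4 and 29.5. In each of these heart 25 was at least 4.50 times the mean of the other two hearts. The part of blood in these differences was not tested.

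Some neutrophil genes were highest in heart 25 as well, on few reads. *S100a8* had 143, 3.06 and 20.3 normalized counts, *S100a9* 229, 10.2 and 27.6 and *Retnlg* 36.3, 0 and 2.76. The receptor *Csf3r* was even (23.8, 25.5 and 26.7), and *Ly6g* had no read. The list held 0.00192%, 0.000176% and 0.000345% of the reads.

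*Cyp2b10*, a drug-metabolising enzyme, had 599.5 in heart 25, 174 in heart 42 and 742 in heart 89, and was the twentieth gene by SD (1.13). *Tent5b*, just outside the 20, had an SD of 1.08. Among genes with a mean of at least 1000, the 5 with the largest SD were *Hbb-bt*, *Alas2*, *Hbb-bs*, *Hba-a1* and *Bpgm*. The 5 with the smallest were *Maged1* (3391, 3382 and 3387), *Rasip1* (1118, 1116 and 1119.5), *Dnajc21* (1132, 1134 and 1136), *Snd1* (2018, 2015 and 2024) and *Psmd11* (2308, 2312 and 2319). Their SD of 0.002 to 0.003 was under the 0.026 to 0.046 that counting alone gives, so that they cannot be told from many other even genes.

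**Figure D5:**
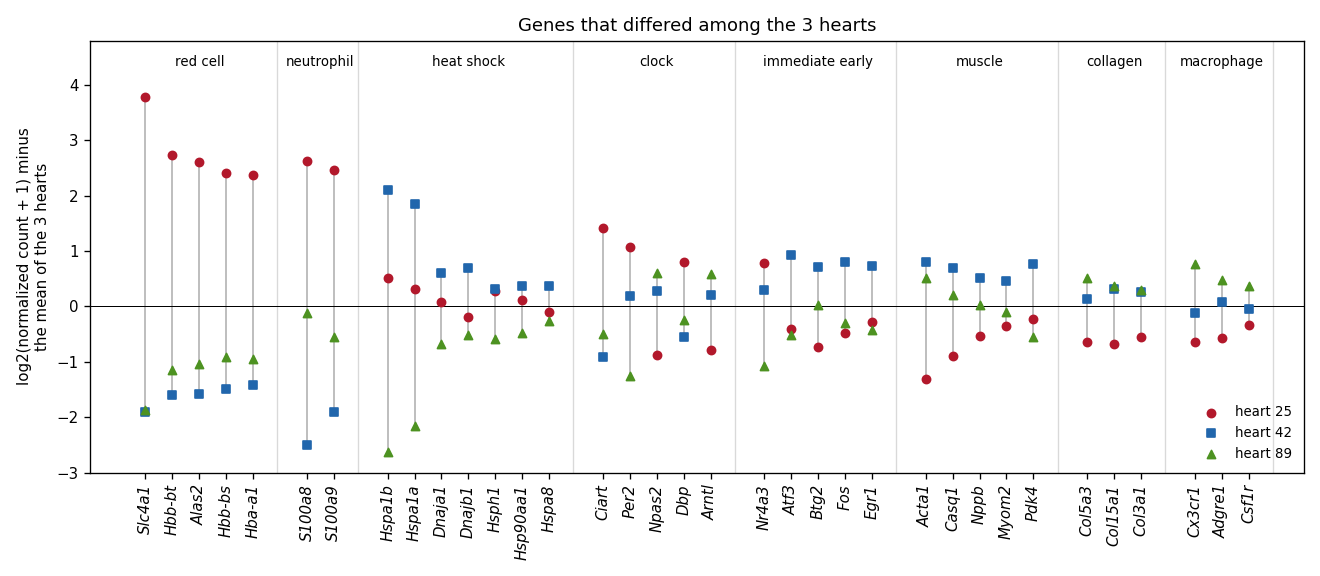
Log2(normalized count + 1) of each heart minus the mean of the 3 hearts, for genes that varied, by group. Heart 25 was highest for red cell and neutrophil genes, heart 42 for heat shock genes, and heart 89 for the macrophage genes shown.

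Chaperones, which fold proteins and are made in excess after heat and other stress, held 1.33%, 1.51% and 1.37% of the reads, led by *Hspb7*, *Cryab* (58712) and *Hsp90ab1* (44225). Of 20 genes 7 varied (35.0%), and in all 7 heart 42 was the highest and heart 89 the lowest. By pair 7, 3 and 5 differed. The inducible *Hspa1b* (chr17:34956436-34959238, minus strand) had 226, 684 and 24.9 normalized counts, and its neighbour *Hspa1a* 75.5, 220.5 and 12.9. Between hearts 42 and 89 that was 27.5 and 17.1 times. The co-chaperones *Dnaja1* (1910.2, 2743 and 1121) and *Dnajb1* (816, 1512 and 654) and the genes *Hsph1*, *Hsp90aa1* and *Hspa8* kept that order with smaller differences. *Hspa1a* and *Hspa1b* are near-identical copies, so reads common to both were not counted and the share of each is uncertain.

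The promoters of both copies are shown because they are the members with the largest spread of the list, with the letters GAANNTTC, 2 facing units of a heat shock element, in capitals. They are from RefSeq (GRCm38.p6) and cover 120 bases before the start of *Hspa1b* (chr17:34959239-34959358, minus strand) and of *Hspa1a* (chr17:34972157-34972276, minus strand), 5′ to 3′.
Hspa1b: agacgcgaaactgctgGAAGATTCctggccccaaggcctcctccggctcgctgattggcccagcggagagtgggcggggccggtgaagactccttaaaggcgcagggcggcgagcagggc
Hspa1a: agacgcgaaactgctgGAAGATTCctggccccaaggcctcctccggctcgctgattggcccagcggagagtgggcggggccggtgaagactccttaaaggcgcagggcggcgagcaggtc
The 2 windows differed at 1 of 120 bases, and the match began 104 bases before the start in both. Over 300 bases of promoter (250 before the start to 50 after it), GAANNTTC, which reads the same on both strands, was found in 10 of the 14 chaperone genes with a promoter in the table (71.4%), against 6.81% of 9163 genes. These were *Dnaja1*, *Hspa1a*, *Hspa1b*, *Hspb1*, *Hspb3*, *Hspb6*, *Hspb8*, *Hspd1*, *Hspe1* and *Hsph1*, of which 4 varied.

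Clock genes, which run the daily rhythm in most cells, varied in 11 of 17 (64.7%), and by pair in 4, 6 and 10. Fewer thus did with any heart left out, and the fewest without heart 25, as was so over all genes. The list held 0.0933%, 0.0793% and 0.0681% of the reads, with *Tef* (2956), *Nr1d1* (2816) and *Nr1d2* (2585) the most abundant. *Ciart* had 328, 64.3 and 86.5 and *Per2*, a repressor of the clock, 709.9, 379.8 and 139. *Dbp*, an output gene, had 1244, 482 and 599. The activators ran in another order, with *Arntl* (BMAL1) at 189, 378 and 487 and *Npas2* at 40.5, 91.9 and 115. Thus heart 25 was the highest for the first 3 and the lowest for the 2 activators, and *Clock* was even (1417, 1406 and 1311). The hour at which each heart was taken is not given in the sources used here.

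The promoter of *Ciart* is shown as that of the clock gene with the largest spread, with the E-box CACGTG, the letters that CLOCK and BMAL1 bind, in capitals. The window holds 120 bases upstream of its annotated starts (RefSeq, GRCm38.p6, chr3:95882252-95882371, minus strand).
Ciart: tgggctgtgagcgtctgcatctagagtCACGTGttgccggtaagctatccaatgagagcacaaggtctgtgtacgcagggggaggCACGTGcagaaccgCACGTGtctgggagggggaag
It held 3 E-boxes. Over the 300 bases, CACGTG, which reads the same on both strands, was found in 5 of 14 clock genes with a promoter in the table (35.7%), namely *Bhlhe41*, *Ciart*, *Cry1*, *Per1* and *Tef*, against 12.0% of all. *Per2* was not in the table.

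For *Alas2*, a red cell gene, and *Acta1*, the windows were as follows (RefSeq, GRCm38.p6), with a GATA site on the opposite strand (TTATCT, the reverse complement of AGATAA) and a TATA box (TATAAA) in capitals. They lie at chrX:150547255-150547374, plus strand, and chr8:123894776-123894895, minus strand.
Alas2: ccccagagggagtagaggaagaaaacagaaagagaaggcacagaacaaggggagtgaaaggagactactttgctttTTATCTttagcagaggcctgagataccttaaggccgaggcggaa
Acta1: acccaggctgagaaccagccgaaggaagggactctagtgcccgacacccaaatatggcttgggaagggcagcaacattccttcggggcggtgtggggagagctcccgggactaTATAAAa
On either strand, AGATAA was found in 7.60% and TATAAA in 8.74% of the 9163 promoters. Among 16 of the 20 most spread genes, 4 held AGATAA and 5 held TATAAA. A match describes the letters only.

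Immediate early genes, which respond within minutes to stimuli and to handling of tissue, varied in 14 of 22 (63.6%), with heart 42 the highest in 10, and by pair in 10, 9 and 4. Of all 22, varying or not, heart 42 was the highest in 15, for which no share over all genes is given. The list held 0.0690%, 0.0959% and 0.0727% of the reads, led by *Ccn2* (1873), *Jun* (1433) and *Dusp1* (1385). *Atf3* had 194, 491 and 179, *Btg2* 651, 1776 and 1095, *Fos* 40.5, 100 and 46.0, and *Egr1* 239, 483 and 216. *Nr4a3* was the exception with the largest spread, highest in heart 25 (408, 292 and 111). Among genes that varied, heart 42 was thus the highest for 10 of 14 immediate early genes and for the 7 chaperones. Over all genes it was the highest for 394 of the 1320 that varied.

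Antioxidant and metallothionein genes held 0.59% ± 0.06, led by *Sod2* (16765), *Gpx4* (12776) and *Prdx3* (10125). Of 23 genes 4 varied, all highest in heart 89, and by pair 3, 1 and 2. With transcript length removed 2 varied, as *Gpx4* fell from 1.57 to 1.4 times and *Nqo1* from 1.61 to 1.42 times. *Txnip* had 6148, 5012 and 9347, *Mt2* 715, 456 and 736, *Nqo1* 1362, 1568 and 2195 and *Gpx4* 12660, 9995 and 15673. Interferon-stimulated genes were low (0.0196% ± 0.0014), with *Irf9* (424) and *Stat2* (407) among the most abundant, and 3 of 20 varied (by pair 2, 1 and 1). *Rsad2* had 563, 207 and 172, *Ifi44* 64.3, 75.5 and 46.0 and *Oas2* 190, 253 and 166, the last at 1.48 times with transcript length removed.

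Cell cycle genes held 0.0106%, 0.0133% and 0.0126% of the reads, with *Pcna* (823), *Mcm7* (256) and *Mcm4* (245) leading. Of 14 genes 5 varied (35.7%), each lowest in heart 25, and by pair 0, 5 and 4. *Ccna2* had 33.5, 83.7 and 71.8, *Cdk1* 30.7, 75.5 and 62.6, *Top2a* 81.1, 191 and 144, and *Cdc20* 33.5, 64.3 and 74.6. *Mki67*, the usual mark of dividing cells, had 173, 232 and 195 and did not vary.

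Levels of *Hif1a* and of genes assayed by other methods as well complete the account. *Hif1a* had 1249, 1279 and 1618 normalized counts, *Ldha* 25282, 20341 and 22548, *Gja1* 15905, 19803 and 15786, *Pecam1* 4863, 4714 and 4202, *Tgfb1* 756, 830 and 822 and *Tnfrsf1b* 323, 289 and 302. The reference gene *Hprt* had 1435, 1354 and 1376. Of 10 genes 2 varied, *Adgre1* and the HIF-1 target *Vegfa*, which had 11142, 13279.8 and 6463. The 3 *Wt* hearts thus differed 2.05 times in *Vegfa*, with heart 89 the lowest.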

How the data were processed

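Left ventricles of 3 *Wt* mice were sequenced. The study's methods name adapter and quality trimming (Trimmomatic), removal of ribosomal and mitochondrial reads, STAR 2.5.2b (per the submitters' processing notes) against GRCm38 with a GENCODE annotation, and htseq-count in union mode, whose strand setting is not given in the sources used here. The deposited counts are whole reads per gene without normalization, and the 5 tally lines at their end were left out. The deposited normalized counts, a signal scaled by the authors with DESeq2 size factors over the 12 samples of the series, are each count divided by one number per heart. They were used as deposited. Shares are counts over the heart's gene total. Multiply aligned and ambiguous reads are in no gene, so near-identical, overlapping and, without strand, antisense genes are uncertain.

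Symbols, positions, lengths and overlaps came from GENCODE M21 (GRCm38), not the version the study counted with, and 46488 of 46983 identifiers were matched. The principal transcript is the longest of the best APPRIS class. Spread was the SD of log2(normalized count + 1) over genes with a mean of at least 50, beside the SD of counting (Python 3.11.15, pandas 2.3.3, edgeR 4.0.16 for TMM). Its calculation was checked on simulated counts. There the SD of each gene was set in advance, so the check does not show how an SD from 3 hearts behaves. Named genes were the 20 most abundant, the 3 most abundant of each list, the 20 most spread, the 5 most and 5 least spread with a mean of at least 1000, up to 4 varying genes of each list, the sex-linked and otherwise measured genes, and list members without reads. Some genes that this rule names are not reported here. Further genes of lists and isoform pairs were picked after their values were seen. The lists and genes were chosen with earlier results of these data known. The titles of the 3 samples begin with different numbers, but their biological replicate label is 1 in each, and no p was computed. Alternatives were other scalings, minimum levels, pseudocounts, denominators, lengths and leaving out each heart.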

Additional observations from a re-analysis of the deposited data

How the results depend on the processing

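Scaling by CPM, TMM or size factors of the 3 hearts, or leaving out a heart, changed little in the ranking, whereas per kilobase of merged exons 13 of the 20 most abundant genes were shared. With all tallied reads as denominator, the sarcomere fell to 10.1%, the respiratory chain and ATP synthase to 5.28%, fuel genes to 9.02% and cardiomyocyte markers to 8.23%. The count of genes that varied was 2897 with a minimum of 10, 605 with 200, 11366 without a minimum and 256 at 2 times, and between 535 and 837 with a heart left out, where fewer hearts give fewer extremes. Of the 20 most spread genes, 8 were shared at a minimum of 10, 12 at 200, 5 without one and between 6 (without heart 25) and 18 with a heart left out. Added after the data were seen, a limit of 2 times the counting SD gave 1161 genes, removal of transcript length 1151, each pair of hearts the counts by list given above, and leaving out red cell markers 1315.

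No paired analysis was possible because the 3 hearts form 1 group and no numbers pair them. Below about 50 normalized counts counting error hides differences of this size.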

Other observations

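Apart from *Cd79a* and *Cd79b*, the genes that come first here lie outside the lists, and they were picked after their values were seen. Among genes with a mean of at least 1000, *Ptgds* (a prostaglandin synthase) had 26629 normalized counts in heart 25, 7474 in heart 42 and 22625 in heart 89, with an SD of 0.997 on the log2 scale. Heart 42 alone was low. *Zbtb16*, a transcription factor, had 1989.8, 573 and 798, *Hipk2*, a kinase, 1715, 784 and 525, and *Acer2*, a ceramidase, 1866, 700.3 and 737, so that heart 25 was the highest in each of these. *Inka2* had 1016, 1705 and 545 and *Klhl38* 172, 70.4 and 282. The immunoglobulin heavy chain *Ighm* had 99.2, 90.9 and 279.9, while the B cell genes *Cd79a* and *Cd79b* stayed under 10 in the 3 hearts.

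Protein-coding genes held 99.2% ± 0.0272 (SD, n = 3) of the reads and long intergenic non-coding RNAs 0.305% ± 0.0214. *Neat1*, which builds nuclear paraspeckles, led the latter with 20081, 16111 and 24506, followed by *1700020I14Rik* (9493 ± 1219) and *Malat1* (6937 ± 338). *Mhrt*, annotated on the strand opposite *Myh7* and overlapping it in position, had 1695, 1757 and 1602. Since the strand setting of the counting is not given in the sources used here, reads of *Myh7* cannot be told apart from those of *Mhrt*. In GENCODE M21, genes with exons that overlap another annotated gene on the same strand by at least 30% were *Etfb* (1577), *Rpl13a* (7260.1) and *Rpl24* (3.30), among the listed genes reported here. Overlaps in the version used for counting were not checked.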
